A study of Homo sapiens with 3 samples.

Results

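The circadian clock genes PER1, PER2, PER3, CRY1, CRY2, CLOCK, BMAL1 (also named ARNTL), DBP, BHLHE40 and NFIL3 were examined in RNA sequencing of Hep3B cells, a line from a human hepatocellular carcinoma. Members were the rows of the deposited table whose Ensembl identifier maps to one of these symbols, and all 10 were found among 19862 genes. The study sequenced 3 libraries, 1 per group. The HKR3 cells were transfected with pcDNA3.1-HKR3, a plasmid for ZBTB48 (older name HKR3), a zinc finger protein that binds telomeric repeats. The siTERT cells received a small interfering RNA directed at TERT, the catalytic subunit of telomerase. The control is titled NT-Empty and its treatment is given as Fugene, the transfection reagent, so what nucleic acid it received is not stated in the labels. All 3 groups went through the same culture and transfection protocol. The labels state neither the interval to harvest nor the time of day nor any synchronisation of the cultures, which bears on every level below because clock transcripts cycle. With 1 library per group, each value is a single measurement, no difference has a replicate check, and neither tests nor errors between cultures are reported. Shifts in which cells were present and shifts in RNA per cell cannot be told apart in such bulk libraries.

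The mammalian clock is a loop of transcription and repression. CLOCK and BMAL1 form a heterodimer that binds E-boxes and drives the PER and CRY genes, whose proteins return to the nucleus and repress it. A second loop runs through the nuclear receptors REV-ERB (NR1D1, NR1D2) and ROR, which repress and activate BMAL1. BHLHE40 (DEC1) is a repressor that competes for E-boxes, while DBP activates and NFIL3 (E4BP4) represses genes through another element, the D-box. In liver this system times bile acid, lipid, glucose and xenobiotic metabolism, and BHLHE40 and NFIL3 are also known to respond to signals outside the clock.

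In the HKR3 library 2 repressors stood at higher levels than in the control, BHLHE40 by 2.61-fold and NFIL3 by 1.95-fold, and CRY2 stood at 0.562 times the control level. The remaining measured members lay within 1.5-fold of the control on the log2(FPKM + 1) scale, with BMAL1 at a plain ratio of 1.53. All 9 measured members lay within 1.5-fold of the control in the library labelled siTERT, as did 97.1% of those genes. These values are described below by the role of each gene, in FPKM (fragments per kilobase of transcript, scaled to library size by the authors), which divides out transcript length and so allows levels of different genes to be set side by side.

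The promoters of the genes that differed most in the HKR3 library, and that of PER1 for comparison, are shown because E-boxes and D-boxes are the elements through which the members act on each other. Sequences are from RefSeq on GRCh38.p14, whereas the authors' files were made on hg19. Each covers the 250 bases before a transcript start, 5′ to 3′ on the gene's strand. Capitals mark matches on either strand to CACGTG (E-box), CACGTT (E-box variant), TTATGTAA or TTACGTAA (D-box), TGACGTCA (cAMP response element) or TTAGGG (the telomere repeat unit). The BHLHE40 window is chr3:4979187-4979436 on the plus strand, the NFIL3 window is chr9:91423833-91424082 on the minus strand, the CRY2 window is chr11:45847225-45847474 on the plus strand, and the PER1 window is chr17:8152405-8152654 on the minus strand.
BHLHE40: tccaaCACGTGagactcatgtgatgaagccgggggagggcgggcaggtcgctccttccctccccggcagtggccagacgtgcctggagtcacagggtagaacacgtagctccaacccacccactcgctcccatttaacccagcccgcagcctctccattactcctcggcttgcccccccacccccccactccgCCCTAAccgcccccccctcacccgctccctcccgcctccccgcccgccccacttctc
NFIL3: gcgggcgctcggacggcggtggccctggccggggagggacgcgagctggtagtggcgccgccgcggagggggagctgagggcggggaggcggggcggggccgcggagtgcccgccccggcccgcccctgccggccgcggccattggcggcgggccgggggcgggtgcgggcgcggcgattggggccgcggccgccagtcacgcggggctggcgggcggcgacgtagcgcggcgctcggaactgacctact
CRY2: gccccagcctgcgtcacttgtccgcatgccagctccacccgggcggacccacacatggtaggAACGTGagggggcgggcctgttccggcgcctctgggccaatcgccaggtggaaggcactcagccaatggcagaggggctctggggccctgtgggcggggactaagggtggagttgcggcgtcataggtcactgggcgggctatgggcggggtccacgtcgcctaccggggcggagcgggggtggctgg
PER1: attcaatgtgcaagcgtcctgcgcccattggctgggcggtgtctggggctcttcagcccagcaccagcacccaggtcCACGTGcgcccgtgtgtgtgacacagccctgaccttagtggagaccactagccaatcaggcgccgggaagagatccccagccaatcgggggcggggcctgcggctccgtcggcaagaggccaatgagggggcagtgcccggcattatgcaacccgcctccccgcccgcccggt

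The BHLHE40 window held an E-box that began 245 bases before the start and, on the other strand, 1 telomere repeat unit that began 57 bases before it. The PER1 window held an E-box 173 bases before the start. CRY2 had an E-box variant 188 bases before the start shown, which reads AACGTG on this strand, and its other RefSeq start had no match. The NFIL3 window shown had none, and that of its other start held a telomere repeat unit across the start itself. All 10 members had an entry, 15 entries in all, and the search covered 250 bases before to 50 after each start. By gene, the E-box was found in 2 of 10, the E-box variant in 4, the telomere repeat unit in 3, each D-box form in 1 (TTATGTAA in PER3 and TTACGTAA in PER2) and the cAMP response element in 0. Among all 35116 promoters of the same length the shares were 7.26% for the E-box, 5.34% for its variant, 9.05% for the telomere repeat unit, 0.886% for TTATGTAA, 0.125% for TTACGTAA and 1.85% for the cAMP response element. These shares are per single promoter, whereas the counts by gene pool all entries of a gene. A gene with more entries has more places for a match, so the counts and shares are not directly comparable. The motif letters overlapped at none of these matches. A match describes letters in the window and not a bound site.

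Facts of the libraries that touch the clock genes are given first. ZBTB48 was at 2842 FPKM in the HKR3 library, 4.89 FPKM in the library labelled siTERT and 4.91 FPKM in the control, as the HKR3 label states. TERT was at 5.37 FPKM in the library labelled siTERT and 4.69 FPKM in the control, which goes against the label, and that library is named by its label throughout. The HKR3 library had the lowest FPKM sum, 535516 against 596536 in the control. Scaling every library to the same sum moved the median log2 difference of all genes in the HKR3 library by 0.14. The fragments behind the libraries, estimated from the FPKM worth of 1 fragment in weakly expressed genes, were between 1.02e+07 and 1.12e+07. Only genes inside a preset range of that worth entered, 82 in the HKR3 library, 94 in the library labelled siTERT and 76 in the control. The range bounds the estimate beforehand, and all counting intervals below rest on it. Of 10 hepatocyte markers all were measured in all libraries, and they summed to 7965 FPKM in the HKR3 library, 11257 FPKM in the library labelled siTERT and 11377 FPKM in the control. Of 11 markers of other cell types found, 2 reached a mean of 1 FPKM, LYZ and CD14, while PTPRC, CD3E, VWF, DCN and ACTA2 were listed at 0. The 11 summed to 213 FPKM in the HKR3 library, 397 FPKM in the library labelled siTERT and 399 FPKM in the control. Nearly all of this was LYZ, at 210, 391.9 and 392.5 FPKM in the same order. The sum therefore follows 1 gene and does not measure how many other cells were present. Both marker sums were lower in the HKR3 library, and their part in the clock gene differences was not tested.

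Levels differed widely among the 10 genes. NFIL3 was the highest in each of the 3 libraries, and PER3, BMAL1 and CLOCK were the lowest, in that ascending order. BHLHE40 was the second highest clock gene in the HKR3 library and the fifth in the control, where CRY1, CRY2 and DBP were above it. In the library labelled siTERT it ranked just under CRY1, with CRY1, BHLHE40 and CRY2 all between 11.8 and 12.3 FPKM. With single libraries, neighbours this close in the order are not separated.

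**Figure D1:**
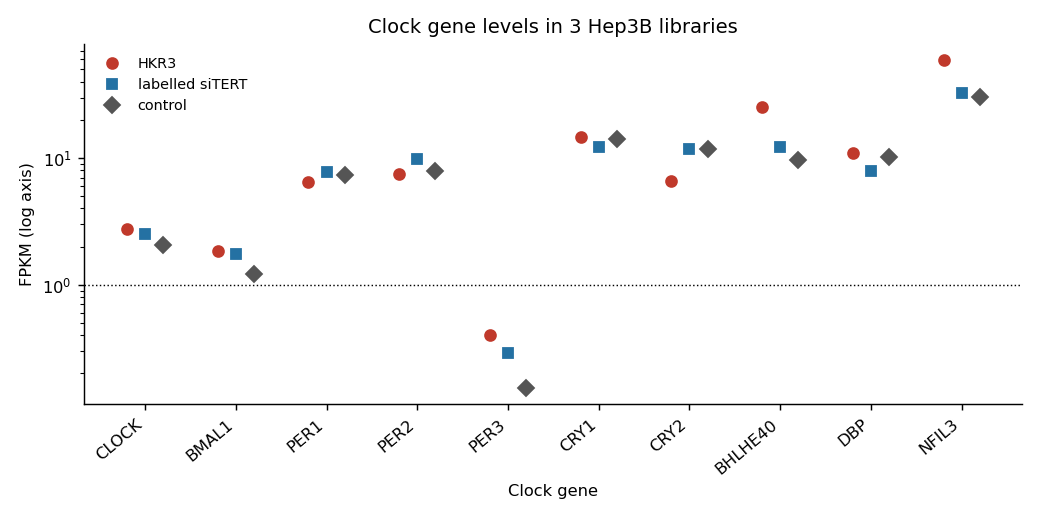
FPKM (log axis) of each clock gene in the HKR3 library (circles), the library labelled siTERT (squares) and the control (diamonds), 1 library each; the dotted line is the minimum mean of 1 FPKM. The HKR3 circle stands apart from the other symbols upward for BHLHE40 (25.1 FPKM) and NFIL3 (59.0 FPKM) and downward for CRY2 (6.57 FPKM), and PER3 lies below 1 FPKM in every library.

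The differences were computed as log2(FPKM + 1), over the 10974 genes whose mean over the 3 libraries was 1 FPKM or more. This scale understates differences of weakly expressed genes, and 9 of the 10 clock genes passed. PER3 did not. In the HKR3 library 1 of the 9, BHLHE40, was at least 2-fold higher than in the control, where 5.52% of all tested genes were, and 0 were at least 2-fold lower, where 2.52% of all were. Of the 9, 6 lay within 1.5-fold of the control, against 72.0% of all tested genes. Their median log2 difference was 0.098, with 6 above 0, beside a median of -0.021 over all tested genes, of which 48.6% were above 0. After scaling to the same sum these medians were 0.24 and 0.12, and 841 genes were at least 2-fold higher and 165 lower, in place of 606 and 277. As a group the clock genes were therefore near the background of this library, and 3 single members stood toward its edges.

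The activators come first. CLOCK, the histone-acetylating subunit of the activating heterodimer, was at 2.77 FPKM in the HKR3 library, 2.49 FPKM in the library labelled siTERT and 2.06 FPKM in the control. BMAL1, its partner, was at 1.86 FPKM in the HKR3 library, 1.73 FPKM in the library labelled siTERT and 1.21 FPKM in the control. The control was the lowest of the 3 libraries for both genes, and neither reached 2-fold. Their log2 differences from the control were 0.30 and 0.37 in the HKR3 library, and 0.19 and 0.31 in the library labelled siTERT, in the order CLOCK, BMAL1. The depth behind these levels was small, with about 110 CLOCK and 49 BMAL1 fragments in the HKR3 library against 75 and 30 in the control, counted over the shortest complete coding transcript of each gene. On these counts the FPKM ratio of the HKR3 library to the control was 1.34 for CLOCK, with a 95% counting interval from 1.001 to 1.84, and 1.53 for BMAL1, from 0.939 to 2.46. The intervals are exact Clopper-Pearson limits and cover counting error only, without the variation between cultures. CLOCK overlaps TMEM165 on the opposite strand, which was at 30.6 FPKM in the HKR3 library, 34.2 FPKM in the library labelled siTERT and 38.3 FPKM in the control. The kit keeps strand, but the labels do not state whether counting used it, so reads of TMEM165 in CLOCK cannot be told apart from its own.

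The PER genes encode the period proteins, which carry the CRY proteins into the repressing complex. PER1 was at 6.42 FPKM in the HKR3 library, 7.69 FPKM in the library labelled siTERT and 7.39 FPKM in the control. PER2 was at 7.44 FPKM in the HKR3 library, 9.87 FPKM in the library labelled siTERT and 7.96 FPKM in the control. Both were lowest in the HKR3 library and highest in the library labelled siTERT, by small steps. In the HKR3 library the log2 difference of PER1 was -0.18 and that of PER2 -0.086, and that of PER2 turned to 0.052 after every library was scaled to the same sum. PER2 in the library labelled siTERT had a ratio to the control of 1.24, with a counting interval from 1.11 to 1.39 on 709 against 519 fragments. A difference of this size exceeded counting error but had no check against a second culture.

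PER3, another period gene, was barely detected, at 0.401 FPKM in the HKR3 library, 0.287 FPKM in the library labelled siTERT and 0.154 FPKM in the control. These correspond to about 7, 5 and 2 fragments in the same order over the shortest coding transcript. The HKR3 to control ratio of 2.61 has a counting interval from 0.616 to 31.9 over the shortest coding transcript, and from 1.22 to 5.97 over the longest, so whether PER3 differed beyond counting error depends on the length assumed. Summed over the 3 PER genes, the level was 14.3 FPKM in the HKR3 library, 17.8 FPKM in the library labelled siTERT and 15.5 FPKM in the control.

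The CRY genes encode the cryptochromes, the direct repressors of the CLOCK and BMAL1 heterodimer. CRY1 was at 14.7 FPKM in the HKR3 library, 12.3 FPKM in the library labelled siTERT and 14.02 FPKM in the control. CRY2 was at 6.57 FPKM in the HKR3 library, 11.8 FPKM in the library labelled siTERT and 11.7 FPKM in the control. CRY1 was at similar levels throughout, whereas CRY2 was lower in the HKR3 library than in both other libraries, which were nearly equal. The log2 difference of CRY2 in the HKR3 library was -0.75, short of 2-fold, and 6.89% of the tested genes had a lower one. The ratio to the control was 0.562, with a counting interval from 0.454 to 0.698 on 141 against 231 fragments. CRY1 had a ratio of 1.05, from 0.926 to 1.19. CRY1 was at 2.24 times the level of CRY2 in the HKR3 library, 1.04 times in the library labelled siTERT and 1.20 times in the control. Only 1.67% of the 31-base stretches of CRY2 transcripts, and none of those of CRY1, occur in transcripts of another gene, so reads of this pair are seldom interchangeable.

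BHLHE40, which represses E-box genes, was at 25.1 FPKM in the HKR3 library, 12.2 FPKM in the library labelled siTERT and 9.61 FPKM in the control. The HKR3 level was above both others, and that in the library labelled siTERT lay between. Its log2 difference in the HKR3 library was 1.30, and 2.63% of the tested genes had a higher one. The ratio to the control was 2.61, with a counting interval from 2.30 to 2.96 on 963 against 341 fragments. Against the library labelled siTERT the HKR3 ratio was 2.06, from 1.85 to 2.31, and the log2 difference with the pseudocount was 0.99, just under 2-fold. The ratio of BHLHE40 in the library labelled siTERT to the control was 1.27, from 1.10 to 1.46, with a log2 difference of 0.31. Of the tested genes 7.48% had a higher one. BMAL1, with a log2 difference of 0.31 on this scale, had the higher plain ratio there, 1.43. BHLHE40 was at 9.04 times the level of CLOCK in the HKR3 library, 4.88 times in the library labelled siTERT and 4.65 times in the control. An antisense gene, BHLHE40-AS1, overlaps it and was not analysed here.

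The genes with the pattern most like that of BHLHE40 were ZNF595, GORAB and PPM1D, by the distance over its pair of log2 differences from the control (3 libraries). ZNF595 was at 6.92 FPKM in the HKR3 library, 3.04 FPKM in the library labelled siTERT and 2.23 FPKM in the control, at a distance of 0.011. PPM1D, a protein phosphatase, was at 15.4 FPKM in the HKR3 library, 7.05 FPKM in the library labelled siTERT and 5.56 FPKM in the control, at 0.028, and GORAB lay between these at 0.015. Within a distance of 0.2 there were 104 genes, so 3 libraries single out no partner.

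The D-box pair differed in its members. NFIL3, the repressor, was at 59.0 FPKM in the HKR3 library, 32.7 FPKM in the library labelled siTERT and 30.2 FPKM in the control. DBP, the activator, was at 10.98 FPKM in the HKR3 library, 7.97 FPKM in the library labelled siTERT and 10.2 FPKM in the control. NFIL3 was highest in the HKR3 library with the other libraries close together, and DBP was lowest in the library labelled siTERT. The log2 difference of NFIL3 in the HKR3 library was 0.94, under 2-fold, with 6.29% of the tested genes higher, and it became 1.09, past 2-fold, after every library was scaled to the same sum. Its ratio to the control was 1.95, with a counting interval from 1.78 to 2.15 on 1359 against 643 fragments, the deepest count of the 10 genes. NFIL3 was at 5.37 times the level of DBP in the HKR3 library, 4.10 times in the library labelled siTERT and 2.96 times in the control.

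DBP had a ratio to the control of 1.08 in the HKR3 library, from 0.778 to 1.49, and of 0.782 in the library labelled siTERT, from 0.553 to 1.11. The log2 difference of -0.32 in the library labelled siTERT was the lowest of the 9 clock genes there. Its interval depends on the transcript length assumed, and over the longest coding transcript of 2229 bases in place of the shortest of 709 it ran from 0.645 to 0.950. SPHK2 overlaps DBP on the opposite strand and was at 15.2 FPKM in the HKR3 library, 16.6 FPKM in the library labelled siTERT and 16.3 FPKM in the control. Its contribution to the DBP value cannot be told apart for the reason given for CLOCK.

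**Figure D2:**
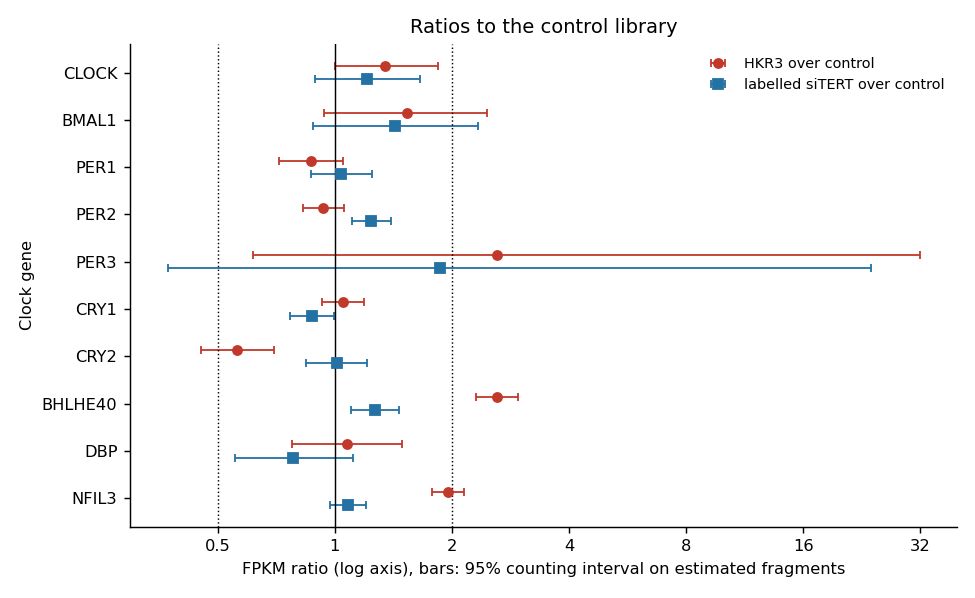
FPKM ratio to the control (log axis) of each clock gene in the HKR3 library (circles) and the library labelled siTERT (squares); bars are 95% counting intervals on estimated fragments, and dotted lines mark 2-fold. BHLHE40 at 2.61, NFIL3 at 1.95 and CRY2 at 0.562 are the HKR3 ratios farthest from 1 with narrow bars, and the PER3 bar, over its shortest coding transcript as for all genes, runs from 0.616 to 31.9.

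The CRY1 ratio to the control in the library labelled siTERT was 0.875, from 0.766 to 0.996. How often such intervals leave out 1 over all genes was not computed, so they describe the reads behind each gene and are no calls. They hold for these libraries and do not compare the treatments.

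With TERT not lower in the library labelled siTERT, 0 of the 9 clock genes there were at least 2-fold higher, against 0.282% of all tested genes, and 0 were at least 2-fold lower, against 0.2%. The 9 log2 differences ran from -0.32 for DBP to 0.31 for BHLHE40, with a median of 0.11 and 7 above 0, beside a median of -0.012 over all tested genes, of which 47.4% were above 0. All 9 lay within 1.5-fold of the control, as did 97.1% of all tested genes. Both comparisons use the same control library, so a high or low control value enters both.

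**Figure D3:**
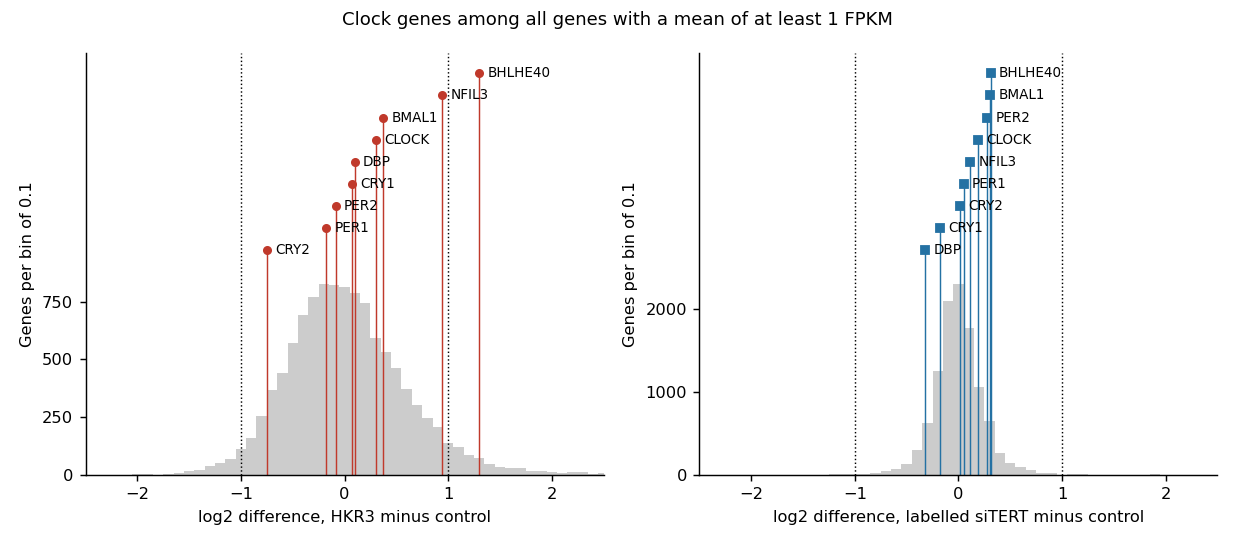
Histograms of log2 differences from the control of all 10974 tested genes (grey) in the HKR3 library (left) and the library labelled siTERT (right), with the 9 measured clock genes as marked lines whose height has no meaning; dotted lines mark 2-fold. BHLHE40 at 1.30 lies past the dotted line on the left, and on the right all 9 lie between -0.32 and 0.31.

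The wider clock network was read from 6 lists of known components. Of the activators and second-loop receptors, 6 of 9 were measured, and in the HKR3 library 1 was at least 2-fold higher and 0 lower, against 5.52% and 2.52% of all tested genes. Their median was 0.34 in log2, beside -0.021 over all tested genes, and it moved to 0.89 with a mean of at least 5 FPKM and to 0.088 against the library labelled siTERT. NR1D1, the REV-ERB alpha receptor that represses BMAL1, was at 8.70 FPKM in the HKR3 library, 4.63 FPKM in the library labelled siTERT and 3.64 FPKM in the control, a log2 difference of 1.06 in the HKR3 library. NR1D2, REV-ERB beta, was at 12.4 FPKM in the HKR3 library, 5.94 FPKM in the library labelled siTERT and 6.24 FPKM in the control, a log2 difference of 0.89 that became 1.03, past 2-fold, after scaling to the same sum. Both receptors were highest in the HKR3 library, summing to 21.1 FPKM there, 10.6 FPKM in the library labelled siTERT and 9.87 FPKM in the control. BMAL2, a paralogue of BMAL1, was at 3.12 FPKM in the HKR3 library, 4.70 FPKM in the library labelled siTERT and 4.26 FPKM in the control. The ROR receptors did not reach a mean of 1 FPKM.

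Of PER, CRY and other negative factors 7 of 10 were measured, with BHLHE40 as the 1 at least 2-fold higher in the HKR3 library (5.52% of all tested genes) and 0 lower (2.52% of all), and their median was -0.086, which turned to 0.052 after scaling to the same sum and to 0.054 without the minimum. TIMELESS, a replication fork protein with a debated clock role, was at 18.5 FPKM in the HKR3 library, 26.6 FPKM in the library labelled siTERT and 33.1 FPKM in the control, a log2 difference of -0.81 in the HKR3 library. Its partner TIPIN was at 21.6 FPKM in the HKR3 library, 18.3 FPKM in the library labelled siTERT and 17.4 FPKM in the control, though 29.2% of its 31-base stretches occur in other genes and its value is uncertain. All 4 D-box factors were measured and 0 reached 2-fold in the HKR3 library, against 5.52% of all tested genes higher and 2.52% lower. After scaling to the same sum, NFIL3 passed 2-fold. HLF and TEF, relatives of DBP, were at 12.8 and 8.66 FPKM in the HKR3 library, against 11.8 and 10.2 FPKM in the control, in that order of genes.

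Among kinases, phosphatase subunits and ubiquitin ligase components that set the stability of PER and CRY proteins, 18 of 18 were measured, their median was 0.092 in the HKR3 library, and 0 reached 2-fold there, against 5.52% of all tested genes higher and 2.52% lower. PRKAA1, a catalytic subunit of AMP-activated kinase, which phosphorylates CRY1, had the largest absolute difference of these, 0.63, at 70.2 FPKM in the HKR3 library, 46.4 FPKM in the library labelled siTERT and 45.0 FPKM in the control. Next were PRKAA2, with a log2 difference of 0.47, CSNK2A2, a catalytic subunit of casein kinase II, with 0.45, and CSNK1A1, with 0.55, of whose 31-base stretches 40.3% occur in other genes.

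Of cofactors of the clock complexes 13 of 14 were measured, their median was 0.23 in the HKR3 library, and 2 were at least 2-fold higher and 0 lower there, against 5.52% and 2.52% of all tested genes. EP300, an acetyltransferase that binds the CLOCK and BMAL1 heterodimer, was at 30.5 FPKM in the HKR3 library, 14.7 FPKM in the library labelled siTERT and 12.9 FPKM in the control. SIRT1, a deacetylase that counteracts CLOCK, was at 11.5 FPKM in the HKR3 library, 3.96 FPKM in the library labelled siTERT and 4.79 FPKM in the control. Both were thus higher in the HKR3 library, and the log2 differences of CREBBP and KDM5A, 0.92 and 0.58, were also positive, with CREBBP at 1.07 after scaling to the same sum.

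Of genes listed as output genes under E-box control, 10 of 13 were measured. That control was taken from the list and was not checked for any of them, CDKN1A included. Their median was -0.12 in the HKR3 library, which turned to 0.023 after scaling to the same sum. In that library 1, NR1D1, was at least 2-fold higher and 0 lower, against 5.52% and 2.52% of all tested genes. PPARA, a fatty acid receptor, was at 2.45 FPKM in the HKR3 library, 5.53 FPKM in the library labelled siTERT and 5.57 FPKM in the control, a log2 difference of -0.93. CDKN1A encodes p21, an inhibitor of cyclin-dependent kinases, and stood at 8.71 FPKM in the HKR3 library, 33.7 FPKM in the library labelled siTERT and 15.8 FPKM in the control. CDKN1A was the 1 member of the 6 lists that reached 2-fold in the library labelled siTERT, with a log2 difference of 1.05 there. Of all tested genes 0.282% were at least 2-fold higher in that library and 0.2% lower. The 6 list medians in that library ran from -0.040 to 0.22.

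**Figure D4:**
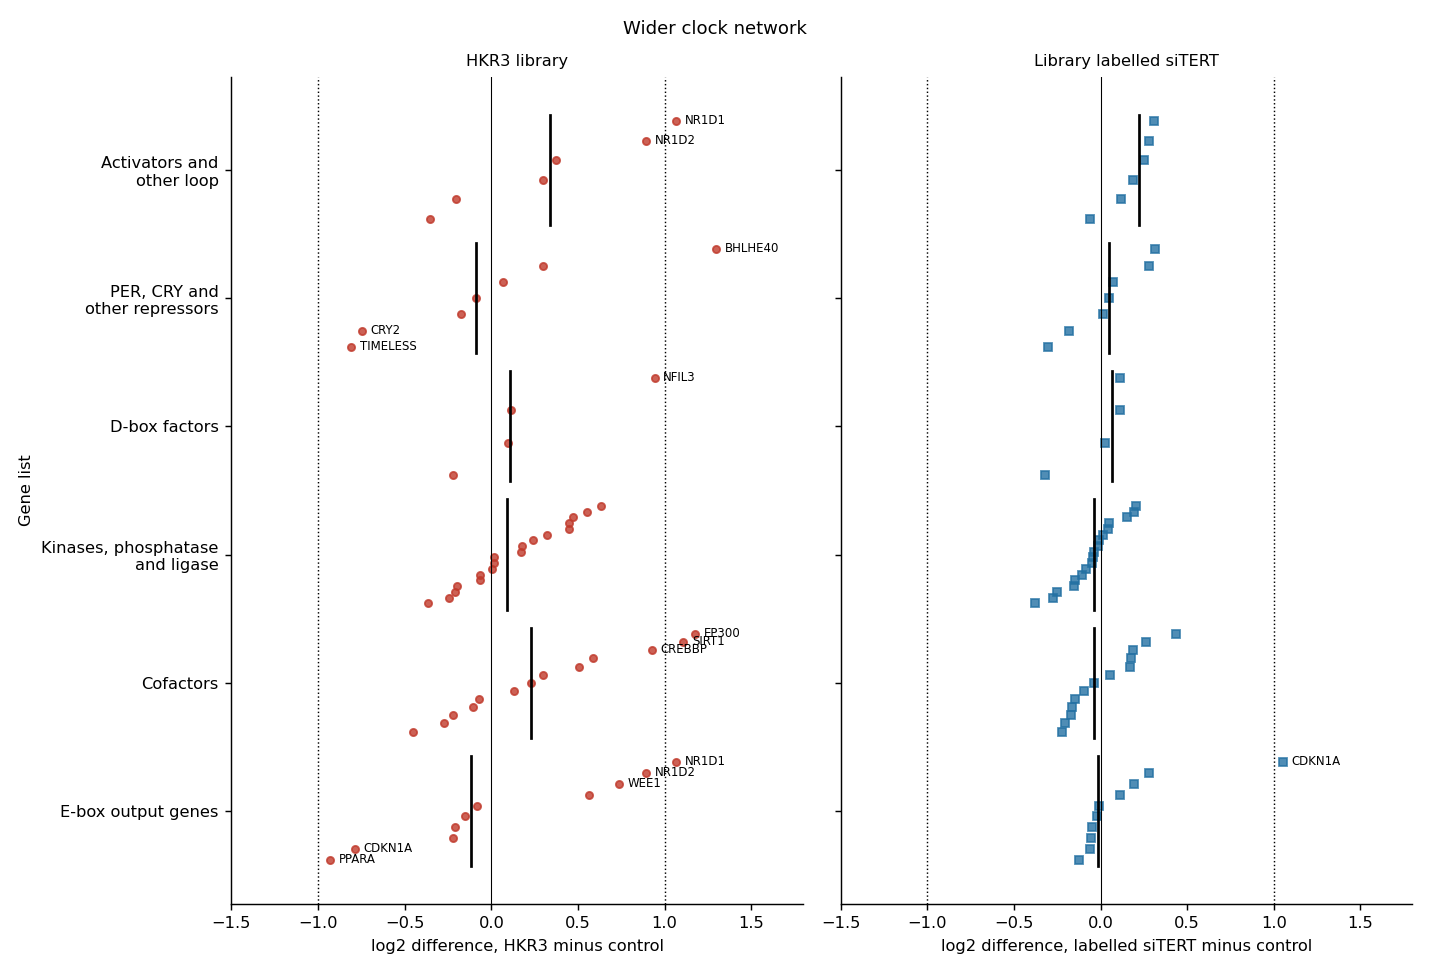
log2 differences from the control of each measured gene in 6 clock lists, in the HKR3 library (left, circles) and the library labelled siTERT (right, squares); black bars are list medians, dotted lines mark 2-fold, and genes at 0.7 or more from 0 are named. In the HKR3 library NR1D1, BHLHE40, EP300 and SIRT1 lie past 2-fold, and in the library labelled siTERT CDKN1A does.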

How the data were processed

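RNA sequencing of 3 Hep3B libraries was used, 1 per group, grouped by title and treatment label. Per the labels' protocols, libraries were made with a stranded TruSeq messenger RNA kit from TRIzol extracts. The deposited table gives each Ensembl gene's FPKM, computed by the authors. The tools named in the submitters' processing notes are STAR 2.5.0, Cufflinks, and Cuffdiff in version 2.2.1, on hg19, without settings, use of strand or filters. Of 19869 rows, 19119 matched a symbol. Rows of short RNA classes, signal recognition particle RNAs among them, were left out and rows with a shared symbol summed, which gave 19862 genes.

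Differences were log2(FPKM + 1) over genes whose mean was 1 FPKM or more, computed with Python 3.11.15 and pandas 2.3.3, and 2-fold replaced a test. Fragments were estimated from single-transcript genes of at least 1000 bases, within a preset range of values, and from lengths in GENCODE v29, with Clopper-Pearson limits from scipy 1.17.1. The code was tested on simulated data. Named were the 10 clock genes, up to 4 genes with the largest absolute HKR3 difference in each of 10 further lists, and the 3 genes nearest to BHLHE40; FKBP5, SIK1, and single markers and overlapping genes were named outside this rule. One gene of the kinase and ligase list is not reported here. The members, lists and rules were chosen with earlier results of these data known. The E-box variant and the telomere repeat unit were added to the search after the data were seen. Alternatives were other pseudocounts, filters and scalings, and the library labelled siTERT in place of the control.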

Additional observations from a re-analysis of the deposited data

How the results depend on the processing

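Of the clock gene differences, 110 of the 113 alternative values kept their direction and their side of 2-fold. This count includes the alternative filters, which change the genes counted and not the difference of a gene. Those values could not move, so the count overstates how far the differences were tried. After scaling to the same FPKM sum (the mean of the 3), NFIL3 passed 2-fold in the HKR3 library (1.09), so that 2 clock genes were at least 2-fold higher, and PER2 reversed to 0.052. With the library labelled siTERT in place of the control, BHLHE40 was at 0.99 and 0 clock genes were at least 2-fold higher. The shift of all genes by 0.14 follows from the sums themselves.

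Over all genes, 606 were at least 2-fold higher and 277 lower in the HKR3 library, 68.6% higher, and after scaling to the same sum 841 were higher and 165 lower, 83.6% higher. The count of higher genes was 238 with a pseudocount of 5 FPKM. That of lower genes was 488 with a pseudocount of 0.1 FPKM, 93 with 5 FPKM, and 151 against the library labelled siTERT. In the library labelled siTERT 31 were higher and 22 lower. With a pseudocount of 0.1 FPKM these counts were 103 and 57, with 5 FPKM 10 and 3, and with a mean of at least 5 FPKM 17 and 5, while without a filter 37 were lower.

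Medians in the HKR3 library ranged over the alternatives from 0.068 to 0.24 for the clock genes, 0.079 to 0.25 for D-box factors, 0.013 to 0.23 for kinases and ligase components and 0.13 to 0.38 for cofactors. Some list medians changed sign. In the HKR3 library that of PER, CRY and other negative factors became 0.054 without a filter and 0.052 after scaling to the same sum, and that of E-box output genes became 0.24 with a mean of at least 5 FPKM and 0.023 after scaling. In the library labelled siTERT scaling turned the medians of cofactors to 0.0011 and of E-box output genes to 0.020. For these the cause was not tested. No paired analysis was possible because each group has 1 library. Depth limits PER3 most, at 2 to 7 estimated fragments over its shortest and 10 to 28 over its longest coding transcript, a length alternative added after the data were seen. With the longest, the interval of CLOCK in the library labelled siTERT also left out 1, at 1.01 to 1.45.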

Other observations

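A pair of further lists holds genes that respond to signals known to reset the clock through PER1 and PER2. RNA levels of such genes do not measure the signals, and whether either signal differed between the libraries was not tested. Of cAMP and CREB responsive genes and coactivators, 10 of 14 were measured, their median log2 difference was 0.57 in the HKR3 library, and 4 were at least 2-fold higher and 0 lower there, against 5.52% and 2.52% of all tested genes. NR4A2, an orphan receptor induced by CREB, was at 13.4 FPKM in the HKR3 library, 7.86 FPKM in the library labelled siTERT and 5.78 FPKM in the control, and CRTC2, a CREB coactivator, was at 36.4 FPKM in the HKR3 library, 17.3 FPKM in the library labelled siTERT and 17.5 FPKM in the control. The other 2 were FOS and FOSB, with log2 differences of 2.34 and 2.07. PER1, itself a CREB target, was at 6.42 FPKM in the HKR3 library, against 7.39 FPKM in the control. In the library labelled siTERT the 1 member past 2-fold was SIK1, of whose 31-base stretches 87.4% occur in other genes, so its value is uncertain. SIK1 stood there at 3.29 FPKM, while its HKR3 and control levels were only 0.108 and 0.0215. It therefore met the minimum mean through that library alone. Its HKR3 log2 difference of 0.12, which enters the list median, compares very low levels.

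Of the glucocorticoid receptor and its responsive genes 8 of 10 were measured, and their median was 0.62 in the HKR3 library. In that library 2, NR3C1 and DUSP1, were at least 2-fold higher and 0 lower, against 5.52% and 2.52% of all tested genes. NR3C1, the receptor, was at 10.9 FPKM in the HKR3 library, 3.73 FPKM in the library labelled siTERT and 2.85 FPKM in the control. TSC22D3, a glucocorticoid-induced gene, was at 16.4 FPKM in the HKR3 library, 8.82 FPKM in the library labelled siTERT and 8.40 FPKM in the control, and it passed 2-fold after scaling to the same FPKM sum. FKBP5, another such gene, was at 4.73 FPKM in the HKR3 library, 4.49 FPKM in the library labelled siTERT and 5.93 FPKM in the control, and MT2A was at 205 FPKM in the HKR3 library, 250 FPKM in the library labelled siTERT and 364 FPKM in the control. Members of this list were thus not all higher in the HKR3 library, and 0 of the 8 reached 2-fold in the library labelled siTERT. The list holds PER1, and DUSP1 belongs to other stress-responsive groups.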
